A study of Homo sapiens with 5 samples.

Results

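The DNA replication origin and fork genes are 55 protein-coding genes whose products load the replicative helicase, start the fork and copy, package and supply the DNA behind it. They were chosen by gene symbol from the table of 25382 genes, and all 55 were found and had enough reads to be tested. The human breast cancer line MDA-MB-231, which is triple-negative and mesenchymal in character, was grown in 1 medium and separated by shear stress, and its RNA was sequenced in 3 weakly adherent samples, labelled 6, 12 and 15 March, and 2 strongly adherent samples, labelled 6 and 15 March. All groups are the same line with no added genotype, drug or time course, and the shear separation defined the groups, so what it did to the cells cannot be told apart from what differed before it. The labels do not say whether samples came from separate cultures, so p-values reflect no more than the spread among these 5 samples, part of which may be technical. Reads assigned to genes numbered 19630386 to 21707459 a library. The line's mesenchymal markers VIM, CD44, ZEB1, AXL and CAV1 were present at 64.6 to 2746 CPM, counts scaled to a common library size, and of 6 receptor and epithelial markers ESR1 and PGR had 0 counts in all 5 libraries. The other 4 had counts: CDH1 averaged 1.36 CPM in weakly and 1.67 in strongly adherent libraries, EPCAM 23.7 in weakly and 20.3 in strongly, ERBB2 86.0 in weakly and 88.3 in strongly, and KRT18 503.1 in weakly and 538.2 in strongly adherent ones. The 4 leukocyte, 3 endothelial and 4 fibroblast markers reached at most 1.88, 1.5 and 3.77 CPM. Their summed levels were 0.998 to 1.33, 1.14 to 1.59 and 3.04 to 4.73 CPM in weakly adherent and 1.45 to 1.98, 0.727 to 0.753 and 3.86 to 4.71 CPM in strongly adherent libraries.

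Replication is prepared before S phase begins. The origin recognition complex, with CDC6 and CDT1, loads the ring-shaped MCM helicase onto origins in G1, and geminin, encoded by GMNN, later holds CDT1 so that no origin is loaded again. At S phase the kinase of CDC7 and DBF4, together with cyclin-dependent kinases, recruits CDC45 and the GINS complex to each ring and turns it into a moving helicase. Polymerases alpha, delta and epsilon, the sliding clamp PCNA and the single-strand binder RPA then work at the fork. In proliferating human cells many of these genes are switched on together at the G1 to S boundary by E2F transcription factors, which bind sites in their promoters. In bulk RNA, fewer cells in a phase and less RNA per cell cannot be told apart.

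Replication genes were lower in weakly adherent cells by modest amounts across most complexes. Of the 55 genes 18 fell, 1 rose and 36 did not pass the test, which was edgeR's quasi-likelihood test with a Benjamini-Hochberg adjusted p under 0.05 over all genes tested. Of all 13297 genes tested, 0.918% fell and 1.77% rose. The log2 fold change, weakly over strongly adherent, was negative for 50 of the 55 and positive for 5. Its median was -0.24 with quartiles of -0.37 and -0.10, where all tested genes had a median of -0.00054 and quartiles of -0.10 and 0.11. None of the 55 differed by a log2 fold change of 1 or more. With the trend of each library with coding length removed, the replication genes again gave 18 lower and 1 higher call, while all genes gave 138 lower and 114 higher, against 122 lower and 235 higher without that step.

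Together the 55 genes took 0.607%, 0.634% and 0.619% of gene counts in weakly adherent libraries (6, 12 and 15 March), against 0.737% and 0.746% in the strongly adherent libraries of 6 and 15 March. Per-library values below follow this order of dates, and CPM values are scaled between libraries by TMM. In 40 of the 55 genes every weakly adherent library lay below both strongly adherent ones, where 14.5% of all tested genes did so. In 3 (ORC2, DBF4 and RPA3) every weakly adherent library lay above both, against 15.5% of all tested genes. The lowest of the 5 libraries was a weakly adherent one for 48 genes, 24 of them in that of 6 March, 8 in that of 12 March and 16 in that of 15 March. The highest was the strongly adherent library of 6 March for 25 genes and that of 15 March for 24.

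**Figure D1:**
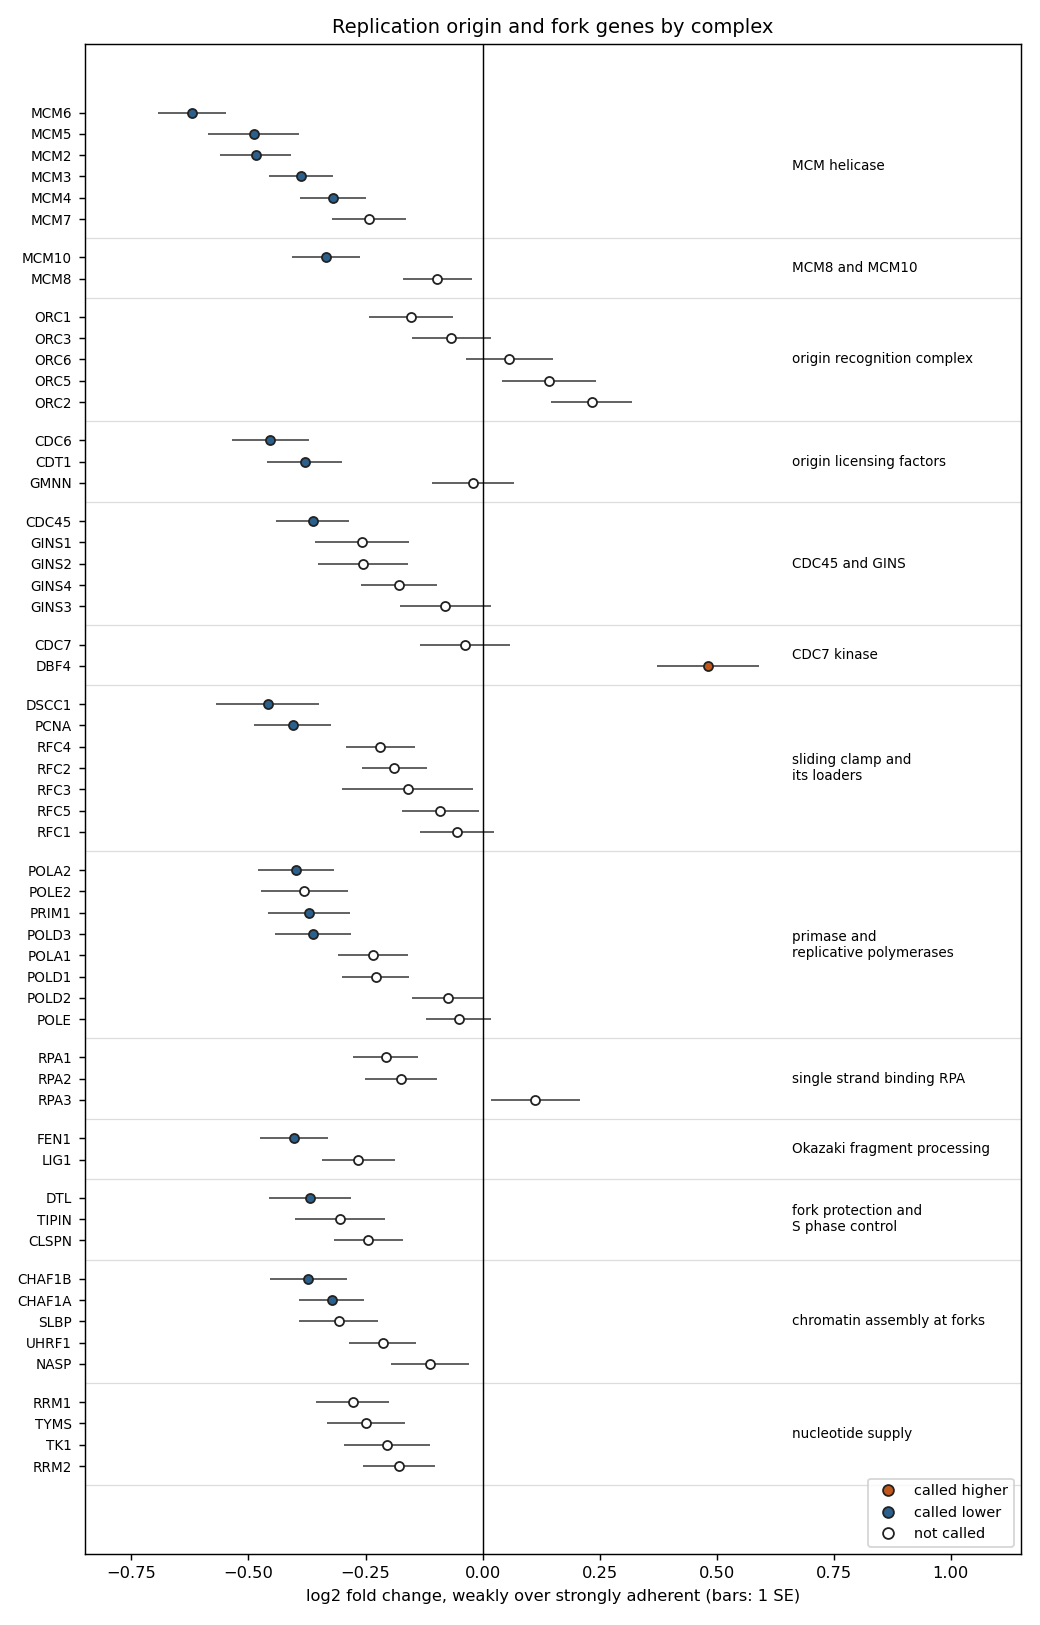
Log2 fold change of each of the 55 replication genes, weakly over strongly adherent, grouped by complex; bars are 1 SE of the edgeR fit, blue points were called lower, the orange point higher and white points neither. Points left of the line at 0 number 50, and DBF4 at 0.48 is the one gene called higher.

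The separation was also seen within dates. The titles carry dates, without saying which step they mark, so the libraries of 6 and of 15 March could be set side by side. In 47 of the 55 genes the weakly adherent library was the lower one on both dates, where 31% of all tested genes were. The opposite held on both dates for 4 genes, and 4 differed in sign between the dates, where 4237 and 4940 of all 13297 tested genes did. The median log2 difference over the 55 genes was -0.28 on 6 March and -0.26 on 15 March. With the date as a block edgeR called 36 of the 55 lower and 2 higher (DBF4 and ORC2), where 5.28% of all tested genes were called lower and 6.2% higher. All 19 genes called without the block were among these 38 calls. The block leaves 1 residual degree of freedom and gives the library of 12 March no weight, which had no strongly adherent partner.

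**Figure D2:**
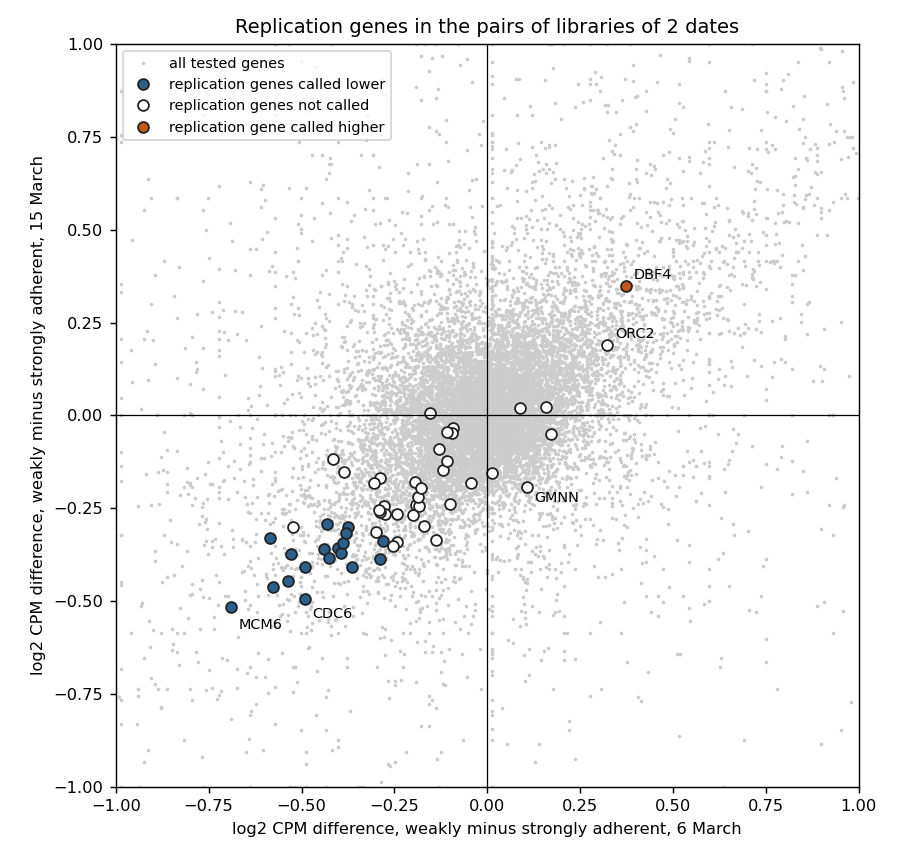
Log2 difference, weakly minus strongly adherent, in the libraries of 6 March (horizontal) and of 15 March (vertical); large points are the 55 replication genes (blue called lower, orange called higher, white not called) and small grey points all tested genes, with those beyond 1 in either direction not drawn. Below 0 on both axes lie 47 replication genes.

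The counts leaned on single libraries, and so did those over all tested genes. Of these, 122 of 13297 were called lower with all 5 libraries. The fits without the weakly adherent library of 6, 12 or 15 March gave 103 of 13246, 56 of 13249 or 67 of 13188. Without the weakly adherent library of 6, 12 or 15 March, 10, 5 or 8 of the 55 genes were called lower. Leaving out the strongly adherent library of 6 or 15 March gave the 55 a median log2 fold change of -0.21 or -0.25. In the last 2 fits the lone strongly adherent library was assumed to vary like the weakly adherent ones. MCM2 and MCM6 kept their calls whichever library was left out. The median log2 fold change of the 55 genes stayed between -0.26 and -0.21 in these 5 fits.

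Sites of the type that E2F factors bind were common in the promoters of these genes. RefSeq promoters of build GRCh38.p14, running from 250 bases before to 50 bases after the start, were at hand for 48 of the 55. The 8-base motifs TTTCCCGC, TTTGGCGC, TTTCGCGC and TTTGCCGC were searched on both strands. At least 1 match lay in 22 of the 48 promoters (45.8%), in 5.42% of the 10444 promoters of tested genes, in 13 of 77 promoters of other replication genes and in 2 of 16 promoters of G2 and M phase genes. Among the 55, a match lay in 8 of 14 promoters of genes called lower and in 14 of 33 of genes not called, and the promoter of DBF4 had none. A match describes letters and is not shown to be a bound site, and overlapping matches were both counted. The 60-base stretches below, written 5′ to 3′ along each gene's strand with the matches in capitals, are shown because they come from called genes of the helicase, licensing, the clamp, polymerase alpha and S phase control and, in MCM7, from the 1 helicase subunit that was not called.
MCM3: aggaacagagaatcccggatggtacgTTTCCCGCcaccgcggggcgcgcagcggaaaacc
MCM6: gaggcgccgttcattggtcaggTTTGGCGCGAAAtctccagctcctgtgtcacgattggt
MCM7: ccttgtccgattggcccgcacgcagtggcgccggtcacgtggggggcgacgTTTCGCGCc
CDT1: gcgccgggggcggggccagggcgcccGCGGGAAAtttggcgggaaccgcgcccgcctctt
PCNA: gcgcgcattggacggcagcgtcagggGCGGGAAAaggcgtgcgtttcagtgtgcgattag
POLA2: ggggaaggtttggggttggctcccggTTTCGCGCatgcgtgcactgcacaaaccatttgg
DTL: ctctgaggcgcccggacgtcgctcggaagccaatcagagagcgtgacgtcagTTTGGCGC

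These stretches lie at chr6:52284883-52284942 on the minus strand for MCM3, chr2:135876496-135876555 on the minus strand for MCM6 and chr7:100101398-100101457 on the minus strand for MCM7. Those of CDT1, POLA2 and DTL lie on the plus strand at chr16:88803728-88803787, chr11:65261883-65261942 and chr1:212035688-212035747, and that of PCNA on the minus strand at chr20:5126648-5126707. All lie upstream of the RefSeq start, outside that transcript. The capitals of MCM6 hold 2 overlapping matches, TTTGGCGC on one strand and TTTCGCGC on the other. In CDT1 and PCNA the match reads as GCGGGAAA, the reverse complement of TTTCCCGC.

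The MCM helicase, the ring that unwinds DNA at each fork, fell in 5 of its 6 subunits. MCM6 had 110.9, 112.2 and 122.8 CPM in the weakly adherent libraries, against 178.9 and 175.6 CPM in the strongly adherent ones. The groups were far apart for this gene, and its log2 fold change of -0.62 (edgeR SE 0.07, adjusted p = 0.00076) was the most negative of the 55. MCM2 had 128.4, 137.8 and 145.5 CPM in weakly adherent libraries, against 186.0 and 198.0 CPM in strongly adherent ones, a log2 fold change of -0.48 (edgeR SE 0.08, adjusted p = 0.0043). The groups did not overlap, and on both dates the strongly adherent library was the higher one. Both calls stood in every fit with 1 library left out, with an edgeR adjusted p of at most 0.037 for MCM2 and 0.0078 for MCM6.

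The subunits MCM3, MCM4 and MCM5 fell too, with calls that ended when single libraries were left out. MCM3 had 421.2, 415.0 and 422.5 CPM in weakly adherent libraries, against 556.3 and 541.5 CPM in strongly adherent ones, which gave a log2 fold change of -0.39 (edgeR SE 0.07, adjusted p = 0.0089). MCM4 had 222.5, 238.6 and 237.4 CPM in weakly adherent libraries, against 288.7 and 292.4 CPM in strongly adherent ones, with a log2 fold change of -0.32 (edgeR SE 0.07, adjusted p = 0.030). In both genes the libraries of each group lay close together and apart from the other group. MCM5 had 94.03, 97.51 and 118.9 CPM in weakly adherent libraries, against 141.1 and 149.4 CPM in strongly adherent ones, a log2 fold change of -0.49 (edgeR SE 0.10, adjusted p = 0.022). Its weakly adherent library of 15 March was the nearest to the strongly adherent ones. The call on MCM4 ended whichever library was left out, at edgeR adjusted p = 0.059 to 0.19. Those on MCM3 and MCM5 ended without the weakly adherent library of 12 March (edgeR adjusted p = 0.060 and 0.076), the strongly adherent one of 6 March (0.12 and 0.075) or that of 15 March (0.062 and 0.11).

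MCM7 did not pass the test, although its libraries also lay apart. It had 447.5, 444.8 and 408.1 CPM in weakly adherent libraries, against 542.9 and 482.9 CPM in strongly adherent ones, with a log2 fold change of -0.24 (edgeR SE 0.08, adjusted p = 0.15), or -0.26 with the date as a block (edgeR adjusted p = 9.4e-04). Both groups had their lower MCM7 value on 15 March. The log2 ratio of MCM6 to MCM7 was -2.01, -1.99 and -1.73 in weakly adherent libraries and -1.60 and -1.46 in strongly adherent ones. The groups did not overlap, and the difference of means was -0.38. This ratio and the 2 others given here, of CDT1 to GMNN and of DBF4 to CDC7, were chosen after their values were seen. An exact permutation test of the group labels was run on them, but it can give no p under 0.1 with these libraries and cannot decide. Summed over its 6 genes the helicase had 1425, 1446 and 1455 CPM in weakly adherent libraries, against 1894 and 1840 CPM in strongly adherent ones. The summed level thus varied little within each group.

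**Figure D3:**
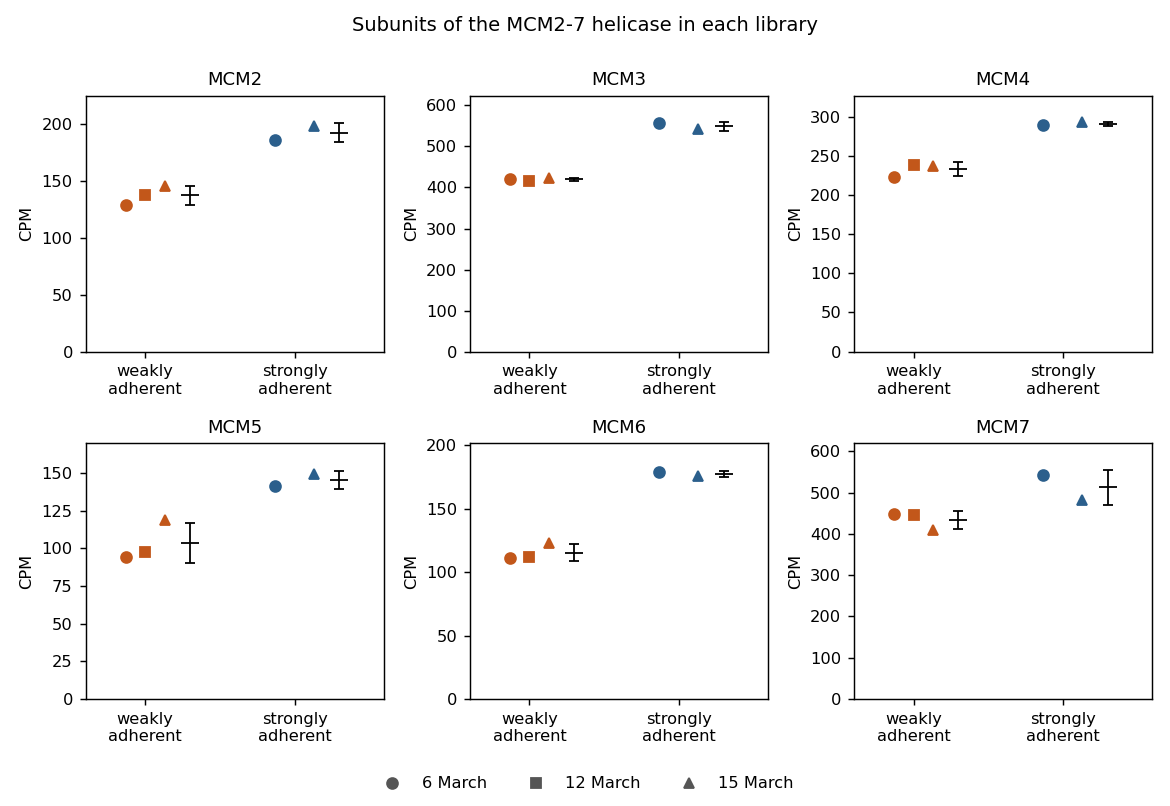
CPM of the 6 MCM helicase subunits in each library, weakly adherent (orange) left of strongly adherent (blue); symbols mark the dates, and the bars beside the points are the mean and SD (n = 3 and n = 2). All weakly adherent points lie below both strongly adherent points in each panel, closest in MCM7.

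The subunits differed in their levels per length of transcript. On the scale of CPM per kilobase, which allows genes to be compared, MCM7 averaged 146.6 in weakly and 173.5 in strongly adherent libraries and MCM3 averaged 130.8 in weakly and 171.1 in strongly adherent ones. MCM4 stood between, at 73.8 in weakly and 92.0 in strongly adherent libraries. The other 3 were lower: MCM2 averaged 37.9 in weakly and 53.0 in strongly adherent libraries, MCM6 30.9 in weakly and 47.5 in strongly adherent ones, and MCM5 29.3 in weakly and 41.1 in strongly adherent ones. The order of these 6 mean levels was the same in both groups, but not in every library. In the strongly adherent library of 15 March MCM3 (168.8) stood above MCM7 (163.3). The weakly adherent one of 15 March had MCM5 (33.6) above MCM6 (32.9). Lengths are those of 1 annotated transcript a gene, and which transcript the cells used is not known.

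MCM8 and MCM10 carry the MCM name but are no part of that ring. MCM10, which helps to activate the helicase, had 73.36, 73.86 and 73.14 CPM in weakly adherent libraries, against 89.63 and 95.59 CPM in strongly adherent ones. It fell with a log2 fold change of -0.33 (edgeR SE 0.07, adjusted p = 0.031), and its 3 weakly adherent values were almost equal. The call ended without the weakly adherent library of 12 or 15 March (edgeR adjusted p = 0.10 and 0.092) or the strongly adherent one of 6 or 15 March (0.10 and 0.25). MCM8, a helicase of recombination repair, had 81.20, 86.84 and 80.23 CPM in weakly adherent libraries, against 88.17 and 88.77 CPM in strongly adherent ones. Its groups lay narrowly apart, with a log2 fold change of -0.10 (edgeR SE 0.07, adjusted p = 0.67).

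The origin recognition complex, the platform on which the helicase is loaded, had none of the 5 subunits on the list called. ORC2 had 46.18, 41.94 and 42.23 CPM in weakly adherent libraries, against 36.91 and 37.04 CPM in strongly adherent ones. Here the weakly adherent libraries were the higher ones, with a log2 fold change of 0.23 (edgeR SE 0.09, adjusted p = 0.22), or 0.26 with the date as a block, where it was called higher (edgeR adjusted p = 0.019). ORC6 had 32.36, 30.14 and 28.77 CPM in weakly adherent libraries, against 28.71 and 29.77 CPM in strongly adherent ones, and the groups overlapped (log2 fold change 0.06, edgeR SE 0.09, adjusted p = 0.88). ORC1, ORC3 and ORC5 had log2 fold changes of -0.15, -0.07 and 0.14 (edgeR adjusted p = 0.51, 0.83 and 0.62). ORC4, a further subunit that is not one of the 55, was tested too and not called (log2 fold change 0.17, edgeR SE 0.11, adjusted p = 0.58). Summed without ORC4, the 5 genes had 192.0, 197.0 and 188.2 CPM in weakly adherent libraries and 184.0 and 192.0 CPM in strongly adherent ones, which overlapped, unlike the helicase.

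Of the licensing factors, both loaders fell and their inhibitor was not called. CDC6, the ATPase that joins the origin recognition complex to load the helicase, had 122.0, 139.9 and 136.1 CPM in weakly adherent libraries, against 171.4 and 191.9 CPM in strongly adherent ones. The groups did not overlap, and the log2 fold change was -0.45 (edgeR SE 0.08, adjusted p = 0.011, or 0.11 without the strongly adherent library of 15 March). CDT1, which brings the helicase to the origin, had 44.04, 47.25 and 46.55 CPM in weakly adherent libraries, against 59.78 and 59.77 CPM in strongly adherent ones. Its strongly adherent values were almost equal, and its log2 fold change was -0.38 (edgeR SE 0.08, adjusted p = 0.024). The call on CDT1 ended whichever library was left out, at edgeR adjusted p = 0.054 to 0.15. GMNN, whose product geminin inhibits CDT1, had 67.04, 69.27 and 64.05 CPM in weakly adherent libraries, against 62.28 and 73.18 CPM in strongly adherent ones. The strongly adherent libraries enclosed all 3 weakly adherent values, and the log2 fold change was -0.02 (edgeR SE 0.09, adjusted p = 0.97).

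The balance of CDT1 to geminin message was lower in every weakly adherent library. Its log2 ratio was -0.61, -0.55 and -0.46 in weakly adherent libraries and -0.06 and -0.29 in strongly adherent ones. The groups did not overlap, and the means differed by -0.36. The ratios are of counts within each library, so that scaling between libraries does not enter. They are not corrected for length, so their zero has no meaning of its own.

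The kinase that fires licensed origins gave the one gene that rose. DBF4, the subunit that activates CDC7, had 63.05, 77.39 and 59.46 CPM in weakly adherent libraries, against 48.67 and 46.73 CPM in strongly adherent ones. All weakly adherent values lay above both strongly adherent ones, highest on 12 March, and the log2 fold change was 0.48 (edgeR SE 0.11, adjusted p = 0.041). With the date as a block, which leaves out that library's weight, it was 0.36 (edgeR adjusted p = 5.6e-05). The call ended without the weakly adherent library of 12 March (edgeR adjusted p = 0.10) or the strongly adherent one of 6 March (0.19) or 15 March (0.21). CDC7, the catalytic subunit, had 36.44, 40.15 and 37.87 CPM in weakly adherent libraries, against 36.15 and 42.14 CPM in strongly adherent ones. Its groups overlapped fully, with a log2 fold change of -0.04 (edgeR SE 0.10, adjusted p = 0.94). The log2 ratio of DBF4 to CDC7 was 0.79, 0.95 and 0.65 in weakly adherent libraries and 0.43 and 0.15 in strongly adherent ones, a difference of 0.51 with no overlap.

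**Figure D4:**
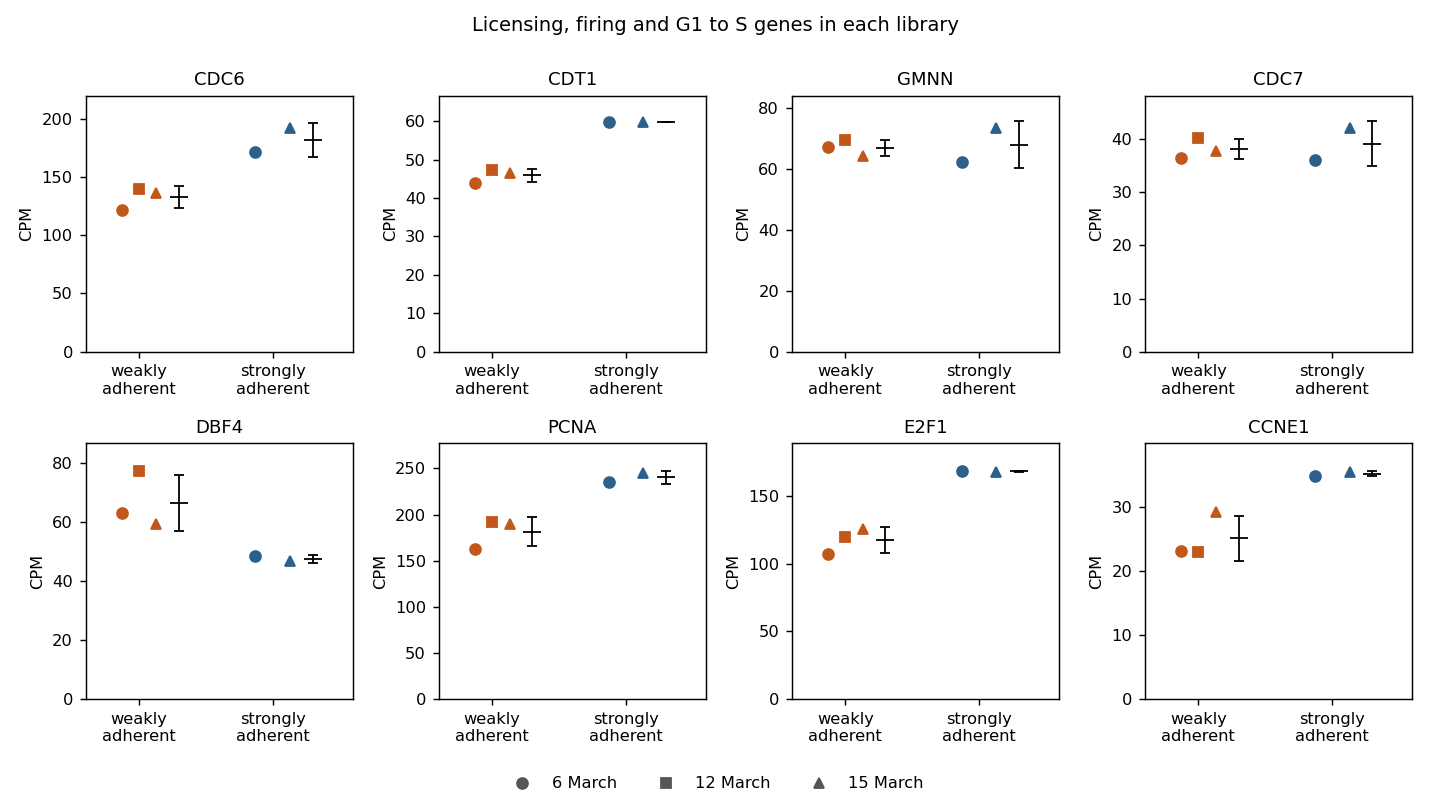
CPM in each library of 8 genes of origin licensing and firing, the clamp and the G1 to S boundary, weakly adherent (orange) left of strongly adherent (blue); symbols mark the dates, and the bars beside the points are the mean and SD (n = 3 and n = 2). CDC6, CDT1, PCNA, E2F1 and CCNE1 lie lower in weakly adherent libraries and DBF4 higher, while the groups overlap for GMNN and CDC7.

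CDC45 and GINS complete the moving helicase. CDC45 had 49.55, 51.08 and 53.05 CPM in weakly adherent libraries, against 66.84 and 64.95 CPM in strongly adherent ones, and fell with a log2 fold change of -0.36 (edgeR SE 0.08, adjusted p = 0.028). The groups lay well apart, but the call ended whichever library was left out, at edgeR adjusted p = 0.059 to 0.20. No GINS subunit was called: GINS1, GINS2, GINS3 and GINS4 had log2 fold changes of -0.26, -0.25, -0.08 and -0.18 (edgeR adjusted p = 0.25, 0.22, 0.82 and 0.35). With the date as a block GINS1, GINS2 and GINS4 were called lower (edgeR adjusted p = 0.0031, 0.030 and 0.040). GINS3 had 20.76, 21.30 and 22.41 CPM in weakly adherent libraries, against 23.11 and 22.32 CPM in strongly adherent ones, and its groups overlapped.

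Among the sliding clamp and its loaders, PCNA and DSCC1 fell. PCNA, the ring that holds polymerases to DNA, had 163.1, 192.1 and 189.6 CPM in weakly adherent libraries, against 235.3 and 245.6 CPM in strongly adherent ones. The lowest value was that of the weakly adherent library of 6 March, and the log2 fold change was -0.41 (edgeR SE 0.08, adjusted p = 0.021). DSCC1, a subunit of the alternative loader that also serves sister chromatid cohesion, had 19.29, 23.75 and 23.05 CPM in weakly adherent libraries, against 28.76 and 31.77 CPM in strongly adherent ones. It likewise was lowest on 6 March, with a log2 fold change of -0.46 (edgeR SE 0.11, adjusted p = 0.046). The call on PCNA ended without the strongly adherent sample of 6 March (edgeR adjusted p = 0.085) or 15 March (0.13), and that on DSCC1 whichever library was left out (0.060 to 0.28).

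The canonical loader RFC had none of its 5 subunits called. Their log2 fold changes ran from -0.22 in RFC4 to -0.05 in RFC1, and with the date as a block RFC3 and RFC4 were called lower (edgeR adjusted p = 0.026 and 0.042). RFC1, the large subunit, had 89.61, 99.81 and 88.73 CPM in weakly adherent libraries, against 97.96 and 94.54 CPM in strongly adherent ones. The weakly adherent library of 12 March was the highest of the 5, and the groups overlapped (log2 fold change -0.05, edgeR SE 0.08, adjusted p = 0.87). On the scale of CPM per kilobase PCNA averaged 133.6 in weakly and 176.9 in strongly adherent libraries and DSCC1 9.52 in weakly and 13.1 in strongly adherent ones, so the 2 called genes differ widely in level.

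Primase and the replicative polymerases had 3 of 8 genes lower. POLA2, the accessory subunit of polymerase alpha, had 37.53, 36.47 and 37.82 CPM in weakly adherent libraries, against 49.33 and 48.91 CPM in strongly adherent ones (log2 fold change -0.40, edgeR SE 0.08, adjusted p = 0.022). PRIM1, the primase that lays RNA primers, had 26.80, 28.04 and 27.46 CPM in weakly adherent libraries, against 34.50 and 36.41 CPM in strongly adherent ones (log2 fold change -0.37, edgeR SE 0.09, adjusted p = 0.045). POLD3, a subunit of polymerase delta, had 59.44, 63.34 and 66.64 CPM in weakly adherent libraries, against 77.86 and 84.50 CPM in strongly adherent ones (log2 fold change -0.36, edgeR SE 0.08, adjusted p = 0.035). All 3 had groups that did not overlap. The calls on PRIM1 and POLD3 ended whichever library was left out, at edgeR adjusted p = 0.093 to 0.28 and 0.059 to 0.25, and that on PRIM1 also with the trend with coding length removed (0.072). That on POLA2 ended without any library other than the weakly adherent one of 6 March (0.063 to 0.14).

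The catalytic subunits of the 3 polymerases were not called. POLE, the leading-strand polymerase, had 134.2, 143.0 and 138.1 CPM in weakly adherent libraries, against 144.5 and 142.3 CPM in strongly adherent ones, and the groups overlapped (log2 fold change -0.05, edgeR SE 0.07, adjusted p = 0.85). Its coding sequence of 6858 bases is the longest of the 55. With the trend with coding length removed its log2 fold change was -0.30 (edgeR adjusted p = 0.067), or -0.33 with the date as a block as well (7.2e-05). POLA1 and POLD1, the catalytic subunits of alpha and delta, had log2 fold changes of -0.23 each (edgeR adjusted p = 0.14 each, or 0.0019 and 0.010 with the date as a block). POLE2, the second subunit of epsilon, lay at the threshold, with 25.70, 28.96 and 28.91 CPM in weakly adherent libraries, against 36.95 and 35.59 CPM in strongly adherent ones (log2 fold change -0.38, edgeR SE 0.09, adjusted p = 0.0501, or 0.049 with the coding length trend removed). POLD2 had a log2 fold change of -0.07 (edgeR adjusted p = 0.77).

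RPA, which coats single-stranded DNA at the fork, had none of its 3 subunits called. RPA1, the large subunit, had 253.6, 237.8 and 242.2 CPM in weakly adherent libraries, against 287.2 and 277.4 CPM in strongly adherent ones, a log2 fold change of -0.21 (edgeR SE 0.07, adjusted p = 0.17, or 0.036 with the date as a block). RPA3, the small subunit, had 30.60, 33.61 and 29.23 CPM in weakly adherent libraries, against 28.76 and 28.82 CPM in strongly adherent ones (log2 fold change 0.11, edgeR SE 0.09, adjusted p = 0.70). The groups overlapped in neither gene, but in RPA3 they lay narrowly apart, at 29.23 against 28.82 CPM. RPA3 was not called with the date as a block either (edgeR adjusted p = 0.81). RPA2 had a log2 fold change of -0.17 (edgeR adjusted p = 0.32).

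FEN1, the nuclease that trims Okazaki fragments, had 144.4, 159.9 and 146.4 CPM in weakly adherent libraries, against 202.9 and 194.3 CPM in strongly adherent ones. It fell with a log2 fold change of -0.40 (edgeR SE 0.07, adjusted p = 0.011), a call that ended only without the strongly adherent library of 6 March (0.12) among the 5 left out. LIG1, the ligase that seals those fragments, had 70.98, 73.66 and 74.96 CPM in weakly adherent libraries, against 92.69 and 83.36 CPM in strongly adherent ones, and was not called (log2 fold change -0.27, edgeR SE 0.08, adjusted p = 0.11, or 0.0024 with the date as a block). Both genes had groups that did not overlap.

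Of the genes that protect the fork and control S phase, DTL fell. DTL, the receptor through which a ubiquitin ligase destroys CDT1 on PCNA, had 83.57, 97.26 and 97.32 CPM in weakly adherent libraries, against 112.4 and 127.0 CPM in strongly adherent ones. The groups did not overlap and the log2 fold change was -0.37 (edgeR SE 0.09, adjusted p = 0.047). Its call, the nearest to the threshold, ended whichever library was left out (edgeR adjusted p = 0.066 to 0.34) and with a filter of 1 CPM in 2 libraries (0.051). TIPIN, of the fork protection complex, had 24.04, 21.81 and 24.64 CPM in weakly adherent libraries, against 28.43 and 29.64 CPM in strongly adherent ones (log2 fold change -0.30, edgeR SE 0.10, adjusted p = 0.14). CLSPN, the checkpoint mediator claspin, had a log2 fold change of -0.24 (edgeR adjusted p = 0.12, or 9.2e-04 with the date as a block).

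In chromatin assembly behind the fork, the genes CHAF1A and CHAF1B of the histone chaperone CAF-1 fell. CHAF1A, its large subunit, had 96.73, 93.12 and 94.64 CPM in weakly adherent libraries, against 117.5 and 119.7 CPM in strongly adherent ones (log2 fold change -0.32, edgeR SE 0.07, adjusted p = 0.028). CHAF1B, its middle subunit, had 46.37, 45.82 and 50.28 CPM in weakly adherent libraries, against 60.35 and 62.59 CPM in strongly adherent ones (log2 fold change -0.37, edgeR SE 0.08, adjusted p = 0.031). Both subunits were tight within groups and apart between them. The call on CHAF1A ended without any library other than the weakly adherent one of 6 March (edgeR adjusted p = 0.083 to 0.18), and that on CHAF1B without any other than the weakly adherent one of 15 March (0.060 to 0.18). UHRF1, which guides maintenance methylation, SLBP, which binds histone messages, and NASP, a histone carrier, were not called, with log2 fold changes of -0.21, -0.31 and -0.11 (edgeR adjusted p = 0.17, 0.084 and 0.65). With the date as a block UHRF1 and SLBP were called lower (edgeR adjusted p = 0.0074 and 1.3e-04). NASP had 294.1, 268.3 and 247.0 CPM in weakly adherent libraries, against 303.0 and 280.4 CPM in strongly adherent ones, and its groups overlapped.

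None of the 4 nucleotide supply genes was called, and all 4 were called lower with the date as a block. RRM1, the large subunit of ribonucleotide reductase, had 282.5, 278.2 and 249.1 CPM in weakly adherent libraries, against 336.6 and 317.7 CPM in strongly adherent ones (log2 fold change -0.28, edgeR SE 0.08, adjusted p = 0.089, or 8.4e-05 with the block). TK1, thymidine kinase, had 203.2, 211.6 and 183.8 CPM in weakly adherent libraries, against 250.9 and 208.7 CPM in strongly adherent ones (log2 fold change -0.20, edgeR SE 0.09, adjusted p = 0.34, or 0.0033 with the block). In both genes the library of 15 March was the lowest of its group, and in TK1 the groups overlapped. RRM2 and TYMS, thymidylate synthase, had log2 fold changes of -0.18 and -0.25 (edgeR adjusted p = 0.30 and 0.16, or 0.0039 and 5.0e-04 with the block). Per kilobase TYMS was among the most abundant of the 55, at 172.6 CPM per kilobase in weakly and 205.1 in strongly adherent libraries.

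Most of the 55 genes shared a plain profile over the 5 libraries, with every weakly adherent library below both strongly adherent ones in 40. After centring each gene's log2 CPM on its mean, the median of the 55 was -0.10, -0.07 and -0.09 in weakly adherent libraries, against 0.15 and 0.13 in strongly adherent ones. These medians were close within each group, while single genes differed more between dates, as RFC3 did in strongly adherent libraries (42.79 and 57.14 CPM on 6 and 15 March) and DSCC1 in weakly adherent ones. The genes outside the list with the most similar profile, by mean absolute distance over the 5 libraries, were ACADM (distance 0.0089), a fatty acid dehydrogenase, VEGFC (0.0099), a growth factor of lymphatic vessels, RBBP8 (0.012), a nuclease cofactor of DNA repair, MEX3D (0.014), an RNA-binding protein, and GPR1 (0.014), a receptor. None of these 5 was called (edgeR adjusted p = 0.13 to 0.20).

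**Figure D5:**
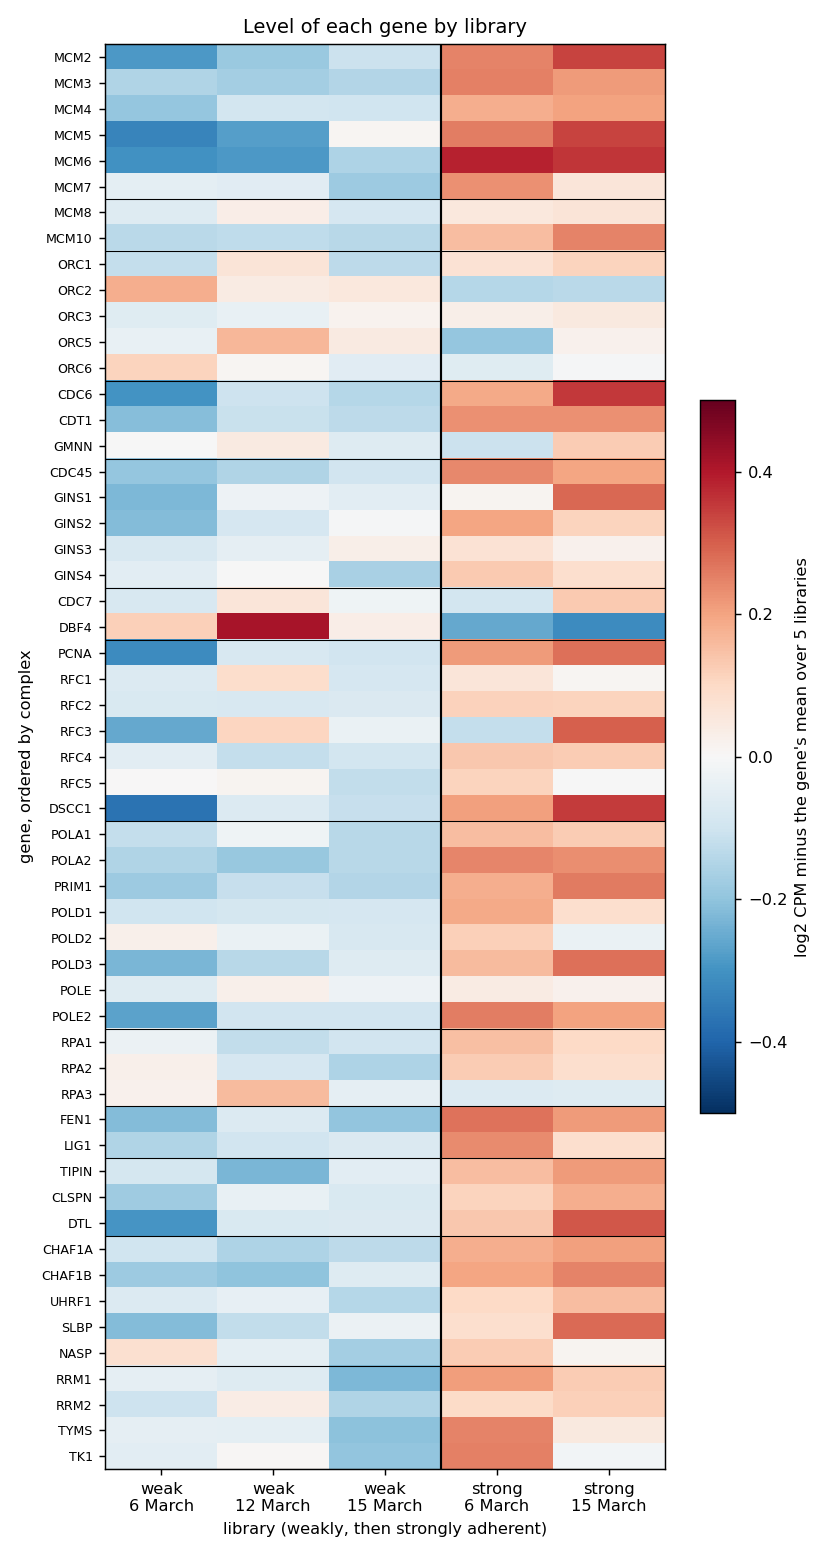
Log2 CPM minus the gene's mean over the 5 libraries, as colour (blue below the mean, red above), for each of the 55 genes in rows ordered by complex and the 3 weakly and 2 strongly adherent libraries in columns. The weakly adherent columns are mostly blue, with medians of -0.10, -0.07 and -0.09, and the strongly adherent ones mostly red, with 0.15 and 0.13, while DBF4 and ORC2 run the other way.

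A further list held 94 other genes tied to replication, all tested. At an adjusted p under 0.05 4 of them fell and 0 rose, where 0.918% of all tested genes fell and 1.77% rose. An unadjusted p under 0.05 was found for 27 of the 94 and for 1889 of all 13297 genes, 59 had a log2 fold change below 0 and the list's median was -0.04. With DESeq2's Wald test 2 of the 94 were higher, where 296 of 12849 genes were. Once the date was a block, edgeR called 23 lower and 7 higher, where 5.28% and 6.2% of all tested genes were. E2F1, a transcription factor of the G1 to S program, had 107.0, 119.9 and 125.4 CPM in weakly adherent libraries, against 168.5 and 167.8 CPM in strongly adherent ones. It fell with a log2 fold change of -0.52 (edgeR SE 0.08, adjusted p = 0.0036), and the call stood whichever library was left out (at most 0.025). CCNE1, cyclin E1 of the same boundary, had 23.04, 22.99 and 29.18 CPM in weakly adherent libraries, against 34.88 and 35.45 CPM in strongly adherent ones (log2 fold change -0.49, edgeR SE 0.11, adjusted p = 0.040, and 0.082 to 0.15 without any library other than the weakly adherent one of 15 March). These were 2 of 21 genes of G1 to S transcription. None of the 21 rose in edgeR's filtered fit of all 5 libraries without the date as a block. With it, 8 were called lower and 2 higher, CCNA2 (log2 fold change 0.29, edgeR adjusted p = 2.1e-04) and CDK6 (0.30, adjusted p = 2.5e-04), which were named after their values were seen.

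The other 2 calls were DONSON, which helps to assemble the helicase, and WDR76. DONSON had a log2 fold change of -0.34 (edgeR SE 0.08, adjusted p = 0.033, and 0.052 to 0.24 with any 1 library left out), the 1 call among 27 origin and fork partners. WDR76 had one of -0.41 (edgeR SE 0.08, adjusted p = 0.022), the 1 call among 14 genes of replication-coupled chromatin and methylation. Its call ended without the weakly adherent library of 12 March (edgeR adjusted p = 0.064) or the strongly adherent one of 6 March (0.10) or 15 March (0.13). In the same 2 lists DNA2, a nuclease, and HELLS, a chromatin remodeller, had log2 fold changes of -0.30 and -0.38 (edgeR adjusted p = 0.12 and 0.089). None of 11 fork checkpoint genes, 14 genes of nucleotide synthesis and salvage or 7 of translesion synthesis was called. In the checkpoint list ATR and TLK2, both kinases, had log2 fold changes of 0.29 and 0.28 (edgeR adjusted p = 0.14 and 0.16). That of ATR, with a coding sequence of 7932 bases, was -0.02 (edgeR adjusted p = 0.98) with the coding length trend removed. CTPS1 and DUT of nucleotide synthesis had -0.27 and -0.23 (edgeR adjusted p = 0.11 and 0.16), and REV3L and RAD18 of translesion synthesis 0.41 and -0.22 (0.074 and 0.17). REV3L has a coding sequence of 9390 bases, and its log2 fold change was 0.02 (edgeR adjusted p = 0.99) with that trend removed.

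Genes of the G2 and M phases stood on the other side. Of 20 such genes 5 rose (MKI67, CENPE, CENPF, KIF20A and HMMR) and 0 fell, where 1.77% of all tested genes rose and 0.918% fell. All 20 lay above 0 on the log2 fold change scale, with a median of 0.54. In 14 of the 20 every weakly adherent library lay above both strongly adherent ones, where 15.5% of all tested genes did so. With the date as a block 18 rose, where 6.2% of all tested genes did. With the coding length trend removed 4 rose, without KIF20A (edgeR adjusted p = 0.12), where 114 of 12220 genes did. MKI67, with a coding sequence of 9768 bases, went from a log2 fold change of 0.96 to 0.55 with that trend removed (edgeR adjusted p = 0.048). The calls on MKI67, CENPE and CENPF stood whichever library was left out, and those on KIF20A and HMMR in 2 of the 5 fits (edgeR adjusted p up to 0.37 each). MKI67, KIF20A and HMMR were named after their values were seen. The summed level of the 20 genes was 8002, 7778 and 5736 CPM in weakly adherent libraries, against 4867 and 4245 CPM in strongly adherent ones. That of the 55 replication genes was 6164, 6360 and 6113 CPM in weakly adherent libraries, against 7460 and 7346 CPM in strongly adherent ones. The part of this shift in phase markers in the lower levels of replication genes was not tested. CENPE and CENPF, both kinetochore proteins, led the list with log2 fold changes of 1.37 and 1.21 (edgeR SE 0.12 each, adjusted p = 5.3e-04 and 0.0014). With the coding length trend removed they were 1.06 and 0.83 (edgeR adjusted p = 0.0031 and 0.032).

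Some of the counts can hold reads of neighbours or copies. In GENCODE release 29 the exons of 24 of the 55 genes overlap another gene, 16 of them a protein-coding one and 18 a gene on the opposite strand. Among the called genes these include MCM2 with TPRA1, DBF4 with SLC25A40, PRIM1 with NACA, FEN1 with TMEM258 and FADS2, and CHAF1A with UBXN6, and among those not called MCM7 with AP4M1 and TYMS with ENOSF1. The library kit keeps strand, per the labels, but the strand setting of the counting is not given in the sources used here. Reads of opposite genes may therefore have gone to either. Pseudogenes named after the gene are annotated for 9 of the 55, among them DBF4, PCNA and FEN1, so their counts are uncertain to that extent. Counts of the 55 ran from 406 to 11913 a library, all above the filter on low counts.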

How the data were processed

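RNA of 3 weakly and 2 strongly adherent MDA-MB-231 samples was sequenced as 50 bp single-end reads from a stranded kit, per the labels' protocols. The authors deposited raw read counts per gene symbol. Trimming and quality tools (cutadapt and FastQC), STAR, HTSeq, DESeq2 and the build hg19 appear in the submitters' processing notes, without versions, and neither annotation nor strand setting is given in the sources used here. The 5 rows that name no gene, 26.2% to 27.4% of all reads in the table, stayed out of library sizes and tests. The authors' normalized table was not used.

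Weakly were tested against strongly adherent libraries in edgeR 4.0.16 under R 4.3.3, with TMM factors, its filterByExpr filter and the robust version of its quasi-likelihood F test. P-values were adjusted by Benjamini-Hochberg over all 13297 genes tested, and a gene was called under 0.05. Each SE is the fold change divided by the root of F. A biological coefficient of variation of 7.91% and 3 residual degrees of freedom lay behind the test. Replicates differed by more than sampling noise, with a chi-square of 7.54 to 12.6 per degree of freedom.

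Dates in the titles, whose step is not stated, were used to pair libraries. The correlation between paired libraries, each taken as its deviation from its group's mean, was 0.50 for 6 March and 0.31 for 15 March, and the unpaired library of 12 March had -0.26 and 0.26 with those strongly adherent ones. With 2 strongly adherent libraries these values mirror each other and say little about pairing. The date as a block was an alternative, with 1 residual degree of freedom.

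Other alternatives were scaling by DESeq2's size factors, DESeq2 1.42.0 with its Wald test, testing with no filter, a filter of 1 CPM in 2 libraries, the trend of each library with coding length removed (natural spline, 5 degrees of freedom, as an offset), the same with the block, and each library left out in turn. Lengths were taken by symbol from GENCODE release 29, which is on another build than hg19 and served for no coordinates; 12220 tested genes (91.9%), all 55 replication genes among them, had one. PCLAF stands in the table as KIAA0101, by RefSeq's synonyms. Tests were tried on simulated counts first. Figures were drawn with matplotlib 3.10.9.

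The members and lists were chosen with earlier results of these data known. Named with values in every library are the called members and, in each complex, those with the smallest and the largest p. POLE2 and the 3 ratios were added after their values were seen, so no test result is given for the ratios. From each further list the 2 genes with the smallest p are named, and the 5 genes nearest in profile.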

Additional observations from a re-analysis of the deposited data

Results flagged for a closer look

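In 4 of the 55 replication genes the weakly minus strongly adherent log2 difference changed sign between the 2 dates. Among all 13297 tested genes 4940 did so. There was 1 pair of libraries a date, so this difference was not tested. ORC6 had 0.172 on 6 March and -0.0492 on 15 March. GMNN had 0.11 on 6 March and -0.19 on 15 March. GINS3 had -0.15 on 6 March and 0.0060 on 15 March. CDC7 had 0.0115 on 6 March and -0.154 on 15 March. None of the 4 was called in edgeR, with or without the date as a block.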

How the results depend on the processing

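With the date as a replicate block edgeR called 36 of the 55 replication genes lower and 2 higher, against 18 and 1 without it. Removing the coding length trend as well gave 32 and 2. Over all tested genes the block called 702 lower and 825 higher of 13297, and with that trend removed 681 and 550 of 12220. With 1 weakly adherent library left out, 5 to 10 were called lower and 0 to 1 higher. Over all tested genes these fits called 56 to 103 lower and 138 to 238 higher, against 122 and 235. The median log2 fold change of the 55 was -0.26 with the block, with or without the coding length trend removed, and -0.26 to -0.21 with 1 library left out, against -0.24. DESeq2's size factors, the Wald test, both filters on low counts and the coding length trend alone gave 17 to 21 lower calls and 1 higher. Over all tested genes they called 112 to 203 lower and 114 to 333 higher. Of the 19 called genes, 17 kept their call under those 5 settings and all 19 with the block, whereas 2 kept it whichever library was left out.

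Of the 94 other replication genes, 23 were lower and 7 higher with the block, against 4 and 0 without it. Removing the coding length trend as well gave 20 and 5, where 681 and 550 of 12220 genes were called. Leaving out 1 weakly adherent library gave 1 to 3 lower and 0 to 2 higher, where 56 to 103 and 138 to 238 of all tested genes were. The Wald test and the fit without a filter gave 2 higher each, where 296 of 12849 and 333 of 17958 genes were higher. Signs reversed in genes that were not called: with 1 library left out, log2 fold changes ran from -0.13 to 0.11 for GMNN, -0.145 to 0.0816 for CDC7, -0.355 to 0.0681 for RFC3 and -0.15 to 0.0030 for POLD2. ATR was at -0.0216 with the coding length trend removed and -0.0526 with the block as well, where REV3L was at -0.0153. Apart from the settings' own loss of samples, the cause was not tested. Precision is limited by 5 libraries, 3 residual degrees of freedom and, for the genes with fewest reads, counting error, since the lowest of the 55 genes had 406 counts in a library.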
